A study of Mus musculus with 91 samples.

Results

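The miRNAs described here are the mature miRNAs of the miR-10, miR-196 and miR-615 genes, which lie inside the mouse Hox clusters: mmu-miR-10a-5p, mmu-miR-10a-3p, mmu-miR-10b-5p, mmu-miR-196a-5p, mmu-miR-196b-5p and mmu-miR-615-3p. They are 6 of the 1504 mature miRNAs counted in the main table. They were selected on measured values, the lower levels of mmu-miR-615-3p and mmu-miR-10a-5p in E7.5 extraembryonic Dnmt-null libraries than in E7.5 extraembryonic controls, so values in those 8 libraries are given as a description, with no test.

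The study asked what the loss of the DNA methyltransferase (Dnmt) genes did to small RNAs around gastrulation, using CAS-seq, a small-RNA sequencing method for very small RNA inputs that cuts adapter dimers with Cas9. Natural embryos were collected at E6.5 and E7.5 and separated with a needle into extraembryonic ectoderm (Exe) and epiblast (Epi). The 4 genotypes were control, Dnmt-null with Dnmt1, Dnmt3a and Dnmt3b all inactivated, Dnmt3a/3b-DKO, and Dnmt1-KO. The mutants were made in 1 step by injecting base editor mRNA and guide RNAs into zygotes, so that each embryo was edited on its own. All of these embryos, controls included, came from F1 females (B6D2F1, per the study's methods) mated with C57BL/6 males, which per the same methods carried an Oct4-EGFP transgene. Each of the 16 groups held 4 libraries, except control and Dnmt-null Epi at E7.5 with 3 each.

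Semi-cloned (SC) embryos, made by injecting androgenetic haploid embryonic stem cells (AG-haESCs) into oocytes in place of sperm, made up a further 6 groups of 3 libraries. Those at E6.5 were WT, DKO, Dnmt-null and DKO;Dnmt-null, and those at E7.5 were Control and Mir-6KO;Dnmt-null. Their labels give no tissue, and the study describes its WT, DKO and Dnmt-null samples of E6.5 as epiblast. In the SC embryos and AG-haESCs, DKO means deletion of the H19 and IG differentially methylated regions, not of Dnmt genes, and Mir-6KO means deletion of miR-409, miR-540, miR-369, miR-541, miR-127 and let-7b. Per the study, E7.5 Control and Mir-6KO;Dnmt-null embryos were both made from DKO AG-haESCs, so Control embryos also carried the DKO deletions. The C57BL/6 AG-haESCs, which hold only a sperm genome and were grown with 2i and Lif, comprised WT, O48 and 408 with 3 libraries each and Mir-6KO with 2. O48 is the line into which the miRNA deletions were introduced before single cells were expanded, so each AG-haESC genotype stands for a line rather than for separate animals. Per the study, those deletions were made in DKO AG-haESCs, so O48 and Mir-6KO cells also carried the H19 and IG deletions. The labels do not say what line 408 is. Nothing states that libraries of a group came from separate embryos, so p-values measure the spread between these libraries, which may be technical.

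Hox genes are laid out along each cluster in the order in which they are used along the body axis, and they are switched on from the posterior primitive streak onwards as gastrulation proceeds. The miRNA genes between them are transcribed with the clusters. miR-10 and miR-196 are known to repress Hox mRNAs of the same clusters, miR-196 acting on Hoxb8 through an almost fully complementary site. A miRNA finds its targets mainly through its seed, bases 2 to 8, shown in capitals in the mature sequences below (RefSeq, GRCm38.p6), which are printed because members of a pair differ by 1 base and share all targets that depend on the seed alone.

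mmu-miR-10a-5p: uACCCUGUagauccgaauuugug
mmu-miR-10b-5p: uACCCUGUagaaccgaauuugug
mmu-miR-10a-3p: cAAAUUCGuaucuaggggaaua
mmu-miR-196a-5p: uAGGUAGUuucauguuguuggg
mmu-miR-196b-5p: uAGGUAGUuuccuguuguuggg
mmu-miR-615-3p: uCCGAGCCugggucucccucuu

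Counting from the 5′ end, mmu-miR-10a-5p and mmu-miR-10b-5p differed by U12A among 23 bases, and mmu-miR-196a-5p and mmu-miR-196b-5p by A12C among 22. Each of those seeds occurred in 2 mature miRNAs of the RefSeq table, the pair itself, and the seeds of mmu-miR-10a-3p and mmu-miR-615-3p occurred in 1 each. A read with an error at base 12 could be counted for the wrong member of a pair, and the mismatch setting of the alignment is not given in the sources used here. The hairpin of Mir10a is printed below because both of its arms are followed here (5p and 3p arm in capitals).

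Mir10a: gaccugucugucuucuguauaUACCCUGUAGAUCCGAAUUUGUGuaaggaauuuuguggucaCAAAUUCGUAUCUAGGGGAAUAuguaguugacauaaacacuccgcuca

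In GRCm38.p6, Mir10a (chr11:96317165-96317274, plus strand) lay in the Hoxb cluster between Hoxb5 and Hoxb4, 993 bases before the start of Hoxb4, and overlapped no Hox transcript. Mir10b (chr2:74726070-74726137, plus strand) was intronic in 1 Hoxd3 and 2 Hoxd4 transcripts. mmu-miR-196a-5p is made by 2 genes, Mir196a-1 (chr11:96265164-96265265, plus strand), 6192 bases before Hoxb9, and Mir196a-2 (chr15:102973350-102973434, plus strand), between Hoxc10 and Hoxc9 and intronic in 1 Hoxc5 transcript. Mir196b (chr6:52230081-52230165, minus strand) lay over an exon of 2 of the 3 Hoxa9 transcripts that spanned it, outside their coding sequence and annotated UTRs. Mir615 (chr15:103014910-103015001, plus strand) was intronic in 2 Hoxc5 transcripts. The 6 miRNAs thus came from all Hox clusters, and the counts of mmu-miR-196a-5p cannot be divided between its 2 genes.

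Total counts per library ran from 45242 to 600821 at E6.5, from 266379 to 2394918 at E7.5, from 154061 to 2425038 in SC embryos at E6.5, from 8570373 to 26970637 in SC embryos at E7.5 and from 3813865 to 16501907 in AG-haESCs. A count of 3, taken here as the limit of detection, was worth 4.99 to 66.3 CPM (counts scaled to a common library total) at E6.5 and 1.25 to 11.3 CPM at E7.5; this limit covers counting error only. Labelled tissues matched their markers: the summed level of 5 epiblast miRNAs (the miR-302 cluster) was 202279 to 212606 CPM in E7.5 Epi controls and 33367 to 45944 CPM in E7.5 Exe controls, and that of 7 trophoblast miRNAs of the Sfmbt2 cluster was 2472 to 3070 CPM and 53304 to 65280 CPM. Groups of libraries were compared as whole tissues, in which fewer cells of a type and less RNA per cell cannot be told apart. Replicate 4 of E6.5 Exe Dnmt1-KO stood apart, with 8049 CPM of blood miRNAs against 91.1 to 628 CPM in the other 3 libraries, and 4228 CPM of mesenchymal miRNAs against 351 to 696 CPM. Replicate 2 of E7.5 Exe Dnmt3a/3b-DKO held 6279 CPM of blood miRNAs against 329 to 565 CPM in the others of its group. The 2 libraries labelled Mir-6KO AG-haESC went against their label: their profiles correlated with those of E7.5 SC Control embryos at a median r of 0.90 over 895 miRNAs, and with those of the parental line O48 at 0.71 (a description over 6 pairs of libraries each). Calls that rest on the first 2 of these libraries, and those that rest on the Mir-6KO libraries, are given with and without them.

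Of the miR-10 family, mmu-miR-10b-5p was the member found in nearly every library. In natural embryos mmu-miR-10a-5p exceeded 3 counts in 9 of 32 libraries at E6.5 and in 27 of 30 at E7.5. In E6.5 Epi, mmu-miR-10a-5p ran from 0 to 60.0 CPM over 16 libraries with a median of 8.41 CPM, and 5 of them held more than 3 counts. The E7.5 Epi controls held 3265, 2676 and 1707 CPM of it. The E7.5 Epi libraries of the 3 mutant genotypes held less: 3.10, 11.3, 1033 and 445 CPM in Dnmt1-KO, 240.2, 67.9, 418 and 1377 CPM in Dnmt3a/3b-DKO, and 0, 12.3 and 0 CPM in Dnmt-null. Every mutant library thus lay below the lowest control, and the 4 libraries of Dnmt1-KO fell into a low and a high pair.

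In Exe, mmu-miR-10a-5p was at 1 count or fewer in each of the 4 E6.5 controls. The E6.5 Exe Dnmt1-KO libraries held 0, 52.6, 822 and 517 CPM, the last 2 being the highest values of E6.5, and the E6.5 Exe Dnmt3a/3b-DKO and Dnmt-null libraries reached at most 26.7 CPM. At E7.5, the Exe controls held 1758, 134, 1059.6 and 1309.6 CPM, Dnmt1-KO held 199, 136, 509 and 779.8 CPM, and Dnmt3a/3b-DKO held 754, 595, 722 and 1944 CPM. The E7.5 Exe Dnmt-null libraries held 26.3, 20.6, 122 and 39.2 CPM. The highest of these, 122 CPM, lay just below the lowest control, replicate 2 at 134 CPM. The control mean of 1065 ± 685 CPM (SD, n = 4) was 20.5-fold that of the Dnmt-null libraries. Without control replicate 2 the ratio was 26.5.

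**Figure D1:**
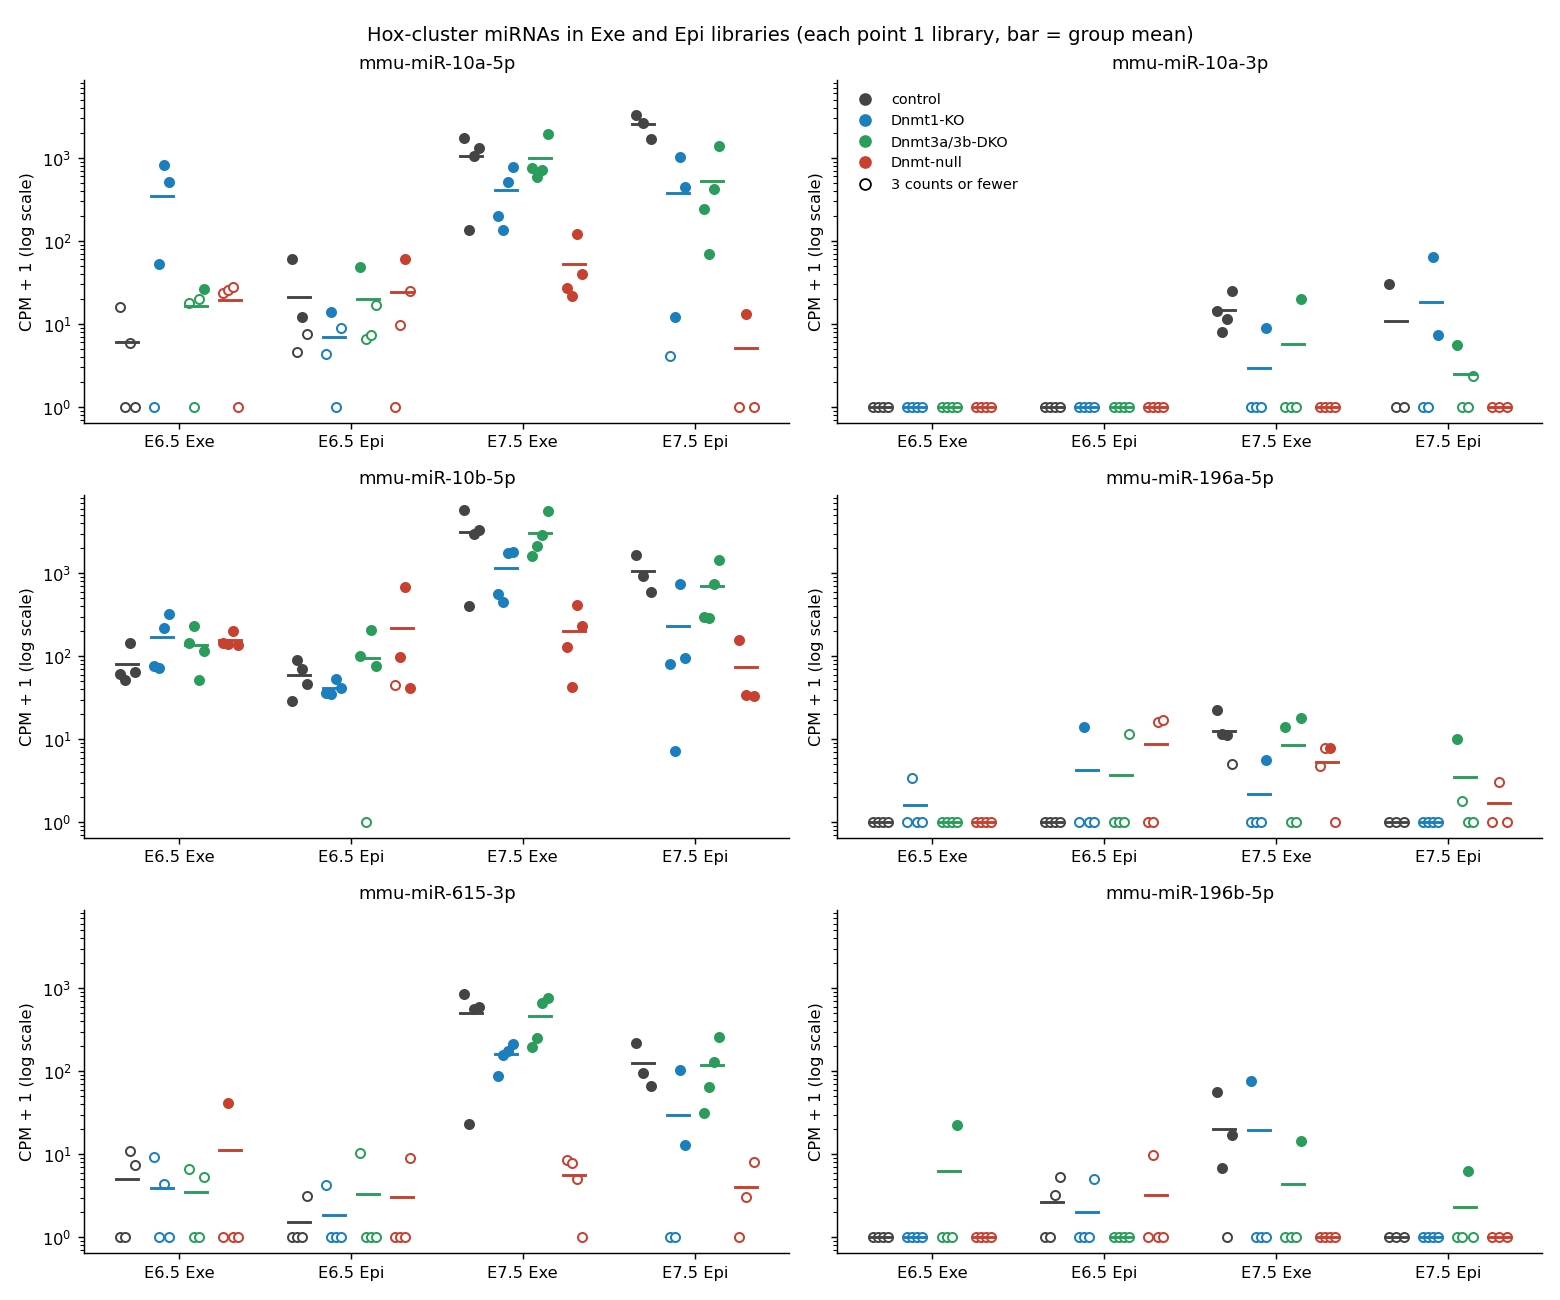
Levels of the 6 Hox-cluster miRNAs in the 62 libraries of natural embryos, as CPM + 1 on a log axis, by tissue, stage and genotype; each point is 1 library, open points held 3 counts or fewer, and the horizontal bars are group means. mmu-miR-10a-5p was at 1707 to 3265 CPM in E7.5 Epi controls and at 0 to 12.3 CPM in E7.5 Epi Dnmt-null libraries, and mmu-miR-10a-3p and both miR-196 miRNAs were at or near 0 in most libraries.

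The paralog mmu-miR-10b-5p was already measurable at E6.5, with 50.4 to 143 CPM in the Exe controls and 27.9 to 88.9 CPM in the Epi controls. It reached 5699, 404, 2935 and 3340.0 CPM in E7.5 Exe controls and 1645, 924 and 600.0 CPM in E7.5 Epi controls. E7.5 Exe Dnmt-null libraries held 128, 41.2, 410.5 and 231 CPM, a mean 15.3-fold below that of the controls, and their highest library overlapped with control replicate 2. In E7.5 Epi, Dnmt-null libraries held 154, 32.8 and 32.1 CPM, Dnmt1-KO held 80.6, 6.27, 742 and 93.2 CPM, and Dnmt3a/3b-DKO held 294, 289, 740.0 and 1445 CPM. The Dnmt-null Epi libraries lay below every Epi control, whereas both other mutant groups overlapped with the controls.

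The star arm mmu-miR-10a-3p had 0 counts in all 32 E6.5 libraries, and at E7.5 it was above 3 counts in 10 of 30 libraries. All 4 E7.5 Exe controls were among them, with 13.3, 7.0, 10.6 and 24.0 CPM, and all 7 E7.5 Dnmt-null libraries were at 0 counts. Its highest level, 63.3 CPM, was in replicate 3 of E7.5 Epi Dnmt1-KO, the same library that had the highest mmu-miR-10a-5p of that group. In the 10 libraries with more than 3 counts of both arms, counts of mmu-miR-10a-5p were 16.3 to 132 times those of mmu-miR-10a-3p, with a median of 83.5. Too few counts in the other libraries leave that ratio undefined there.

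mmu-miR-615-3p, from a Hoxc5 intron, was at 3 counts or fewer in 31 of the 32 E6.5 libraries and reached 5 counts in replicate 2 of E6.5 Exe Dnmt-null. At E7.5, the Exe controls held 854, 22.2, 560.5 and 589 CPM, Dnmt1-KO 86.8, 158, 175 and 213 CPM and Dnmt3a/3b-DKO 197, 250, 662 and 761 CPM. The Exe Dnmt-null libraries held 2, 3, 3 and 0 counts, so the control mean of 506 ± 349 CPM (SD, n = 4) was at least 78.7-fold higher than their limit of detection, and at least 104-fold higher without control replicate 2. In E7.5 Epi the controls held 218, 94.2 and 65.9 CPM and the Dnmt-null libraries 0, 1 and 2 counts. Dnmt1-KO Epi held 0, 0, 102 and 12.05 CPM and Dnmt3a/3b-DKO Epi 30.6, 63.8, 127 and 256 CPM. No Dnmt-null library of either tissue overlapped with the controls, and 1 Dnmt1-KO Epi library, replicate 3, was at the level of the controls.

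Both miR-196 members stayed low in natural embryos. mmu-miR-196a-5p exceeded 3 counts in 1 of 32 libraries at E6.5 and in 8 of 30 at E7.5, and 7 of those 8 were Exe libraries. Its E7.5 Exe controls held 21.7, 10.5, 10.1 and 4.0 CPM, and the highest level elsewhere in natural embryos was 17.1 CPM, in an E7.5 Exe Dnmt3a/3b-DKO library. mmu-miR-196b-5p exceeded 3 counts in 1 library at E6.5 and in 6 at E7.5, with 75.6 CPM in 1 E7.5 Exe Dnmt1-KO library as its highest level. In E7.5 Epi controls both were at 0 counts in all 3 libraries. With so few counts, differences between genotypes were not detectable for this pair.

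Control replicate 2 of E7.5 Exe was the lowest of its group for mmu-miR-10a-5p, mmu-miR-10b-5p and mmu-miR-615-3p. It was also the lowest in the summed level of the 5 mesenchymal miRNAs (315 CPM against 696 to 912 CPM), of the 5 blood miRNAs (195 CPM against 414 to 806 CPM) and of the 2 endothelial miRNAs (1350.5 CPM, with a group maximum of 3075 CPM). Between E7.5 Exe controls and Dnmt-null libraries, the mesenchymal list overlapped (315 to 912 CPM and 593 to 884 CPM), with miR-214-3p at 0 in all 4 Dnmt-null libraries. The blood list was 195 to 806 CPM and 84.7 to 210.4 CPM, with miR-223-3p at 0 in both groups and miR-142a-3p at 0 in all 4 Dnmt-null libraries but not in all controls, and the endothelial list 1350.5 to 3075 CPM and 191 to 2359 CPM. The epiblast list did not overlap, at 33367.5 to 45944 CPM in controls and 17252 to 27413 CPM in Dnmt-null libraries. The trophoblast list overlapped, at 53304 to 65280 CPM and 38612 to 68268 CPM, as did the endoderm and neural lists. The part of these cell types in the levels of the Hox-cluster miRNAs was not tested.

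**Figure D2:**
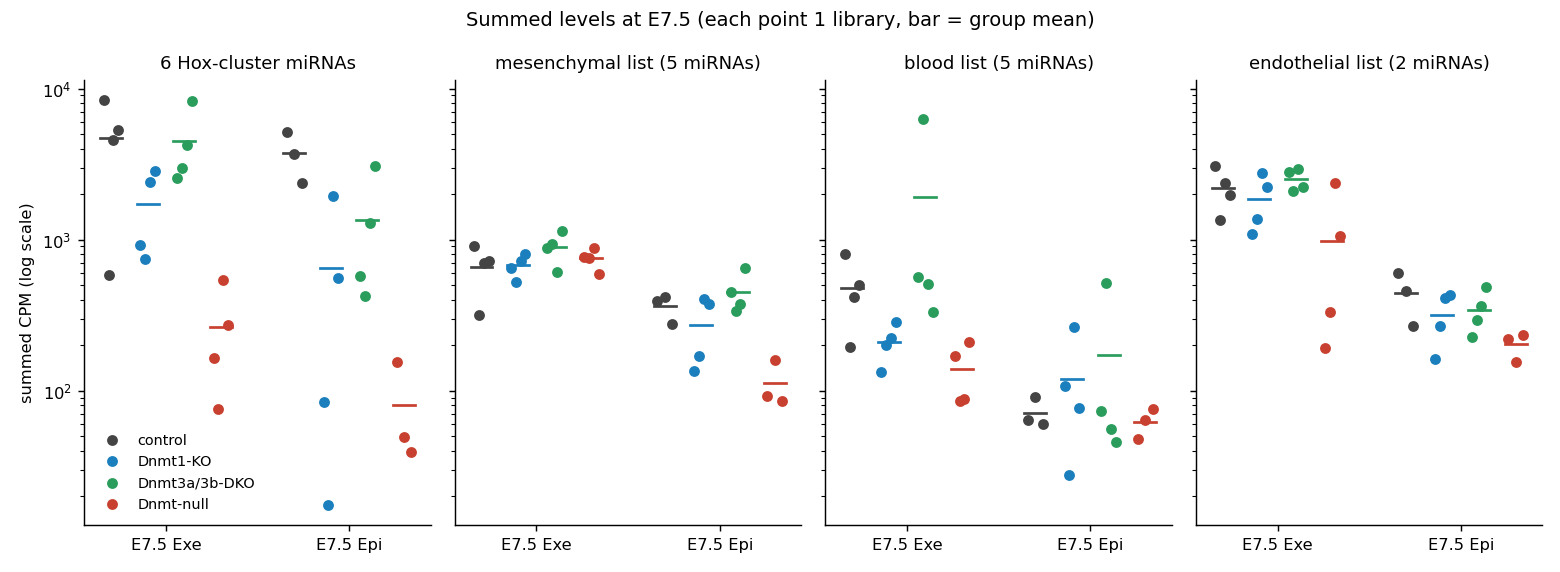
Summed CPM, on a log axis, of the 6 Hox-cluster miRNAs and of the mesenchymal, blood and endothelial lists in the E7.5 libraries, by tissue and genotype; each point is 1 library and the bars are group means. In Exe the mesenchymal list was at 315 to 912 CPM in controls and at 593 to 884 CPM in Dnmt-null libraries.

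The first tested comparison was between stages within a tissue and genotype, which asks whether the miRNAs rose as gastrulation began. Tests used edgeR's quasi-likelihood test with Benjamini-Hochberg adjustment over all miRNAs tested, and a miRNA is called where the adjusted p was under 0.05. Only mmu-miR-10a-5p, mmu-miR-10b-5p and mmu-miR-615-3p passed the filter on low counts among the 62 libraries, and mmu-miR-10a-3p, mmu-miR-196a-5p and mmu-miR-196b-5p were not tested. Since a miRNA can pass that filter through the stage at which it is high, the counts below are given beside the share of all miRNAs called. mmu-miR-615-3p, at 3 counts or fewer in 31 of 32 E6.5 libraries, could pass only through E7.5 and so had to differ between the stages, and its stage changes and their p-values are given as a description. Over 6 stage contrasts, 12 of 18 tests of the 3 miRNAs were called, all of them higher at E7.5 and 4 of them of mmu-miR-615-3p, and nothing is read from that count.

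In control Epi all 3 were called higher at E7.5, in a contrast in which 17.5% of 658 miRNAs were called and the median log2 change of all miRNAs was -0.07. mmu-miR-10a-5p rose 126-fold in mean CPM (log2 change 7.17, SE 1.27, edgeR adjusted p = 1.58e-05). mmu-miR-10b-5p rose 18.2-fold (log2 change 4.30, SE 0.91, edgeR adjusted p = 0.000247). mmu-miR-615-3p, at the limit of detection at E6.5, was at least 14.6-fold higher at E7.5 (edgeR adjusted p = 0.000128). For mmu-miR-10a-5p and mmu-miR-10b-5p the E6.5 and E7.5 control libraries of Epi did not overlap, and how many other miRNAs did so was not counted.

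In Dnmt3a/3b-DKO Epi all 3 were again called higher at E7.5, where 5.02% of miRNAs were called. mmu-miR-10a-5p was 28.0-fold higher (edgeR adjusted p = 0.00558), mmu-miR-10b-5p 7.28-fold (edgeR adjusted p = 0.0205) and mmu-miR-615-3p at least 7.20-fold (edgeR adjusted p = 0.00558). The call of mmu-miR-10b-5p was lost in a fit of those groups alone (adjusted p = 0.0747), and without any 1 of E6.5 replicates 1, 2 and 4 and E7.5 replicate 4. In Dnmt1-KO Epi, where 6.69% were called, mmu-miR-10a-5p alone was called (log2 change 5.59, SE 1.26, edgeR adjusted p = 0.00122). mmu-miR-10b-5p and mmu-miR-615-3p had log2 changes of 2.36 (edgeR adjusted p = 0.0842) and 4.09 (edgeR adjusted p = 0.0536), and DESeq2 called both (adjusted p = 0.0412 and 0.0298). edgeR called mmu-miR-615-3p with RLE size factors (adjusted p = 0.0478), with library totals (0.0423), with no filter (0.0136), with a mean of at least 10 counts (0.0381) and without libraries under 100000 counts (0.0449), and called mmu-miR-10b-5p with no filter (7.44e-05) and without those libraries (0.0481). With 1 library left out, edgeR called mmu-miR-615-3p in most fits and mmu-miR-10b-5p in few.

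In Dnmt-null Epi none of mmu-miR-10a-5p, mmu-miR-10b-5p and mmu-miR-615-3p was called by edgeR or by DESeq2, 0 of the 3 had an unadjusted p under 0.05, and 0.912% of all miRNAs were called. The log2 changes of mmu-miR-10a-5p and mmu-miR-10b-5p were -2.01 (SE 1.64) and -1.40 (SE 0.94), and mmu-miR-615-3p was at or under the limit of detection in every library of both stages. The same contrast thus called few miRNAs of any kind. Whether the stage change differed between Dnmt-null and control Epi was not tested.

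In Exe, stage contrasts were tested in both mutants that took no part in the choice of the miRNAs. All 3 were called higher at E7.5 in Dnmt3a/3b-DKO Exe, where 5.02% of miRNAs were called: mmu-miR-10a-5p 64.8-fold (edgeR adjusted p = 0.00141), mmu-miR-10b-5p 22.6-fold (edgeR adjusted p = 0.000605) and mmu-miR-615-3p at least 24.8-fold (edgeR adjusted p = 0.000475). In Dnmt1-KO Exe 2 of 3 were called, where 15.5% of all were. mmu-miR-615-3p was at least 12.4-fold higher (edgeR adjusted p = 0.00212) and mmu-miR-10b-5p 6.67-fold (edgeR adjusted p = 0.0112), the latter losing its call without E6.5 replicate 1 or replicate 2. mmu-miR-10a-5p was not called (log2 change 0.38, SE 0.94), its E6.5 libraries including the 822 and 517 CPM given above. In control Exe, the E7.5 means, given without a test, were at least 42.1-fold, 38.8-fold and at least 20.01-fold those of E6.5 for mmu-miR-10a-5p, mmu-miR-10b-5p and mmu-miR-615-3p. Without replicate 2 of E7.5 Exe Dnmt3a/3b-DKO, the library with 6279 CPM of blood miRNAs, the 3 calls of that genotype were kept at log2 changes of 6.27, 4.92 and 7.68 for mmu-miR-10a-5p, mmu-miR-10b-5p and mmu-miR-615-3p (edgeR adjusted p = 0.000722, 0.000325 and 0.000261). Without replicate 4 of E6.5 Exe Dnmt1-KO, both calls of that genotype were kept at 3.36 for mmu-miR-10b-5p and 5.41 for mmu-miR-615-3p (edgeR adjusted p = 0.0178 and 0.0102).

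Marker lists also moved between the stages. In control Epi, 6 of 7 trophoblast miRNAs of the Sfmbt2 cluster were called lower at E7.5, their sum running from 7486 to 33554 CPM at E6.5 and from 2472 to 3070 CPM at E7.5, and 1 of 4 endoderm miRNAs was called higher. Of the mesenchymal list, 1 of 4 tested miRNAs was called higher in control and in Dnmt3a/3b-DKO Epi. Of the endoderm list, 1 of 4 was called higher in Dnmt3a/3b-DKO Epi, and 1 higher and 1 lower in Dnmt1-KO Epi. The endothelial pair miR-126a-3p and miR-126a-5p was called higher at E7.5 in Exe of both Dnmt1-KO and Dnmt3a/3b-DKO. In Dnmt1-KO Exe 1 mesenchymal, 1 blood and 1 endoderm miRNA were called lower at E7.5, and in Dnmt3a/3b-DKO Exe 1 blood miRNA was called higher. Their part in the stage changes of the Hox-cluster miRNAs was not tested.

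**Figure D3:**
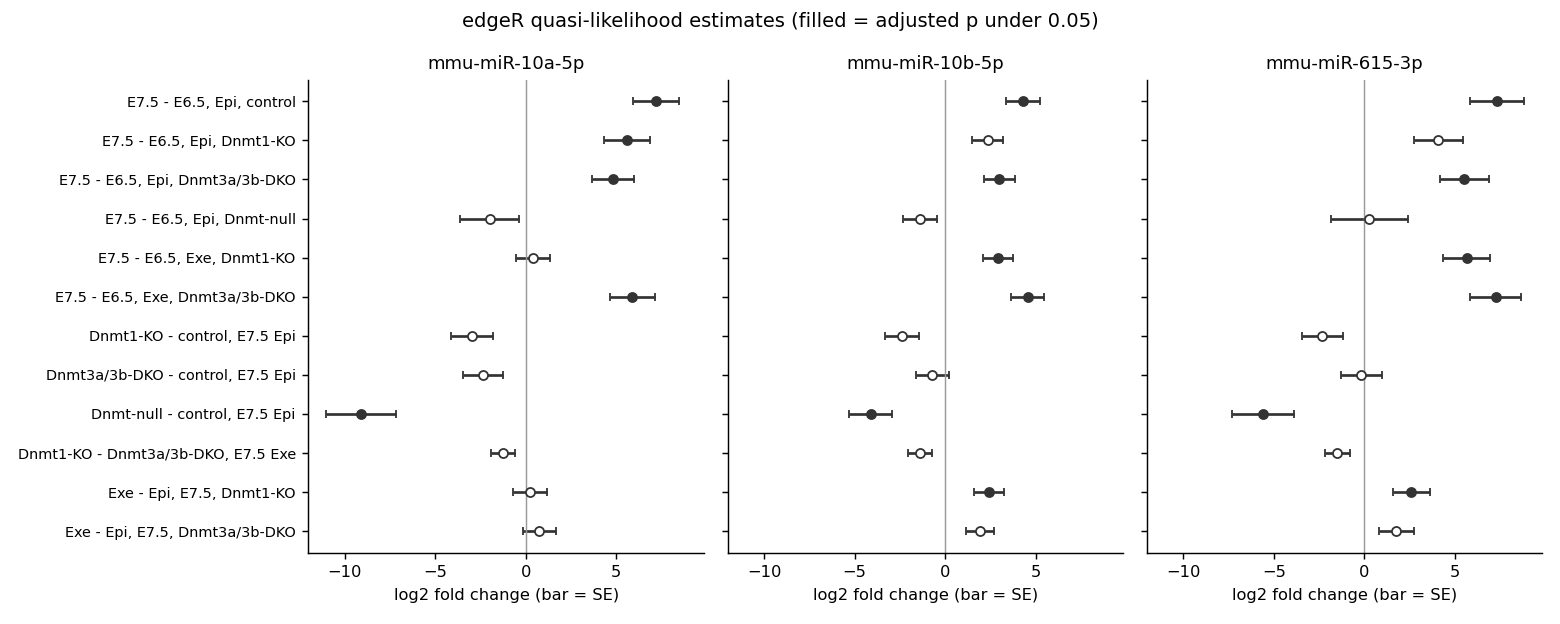
Fitted log2 changes of mmu-miR-10a-5p, mmu-miR-10b-5p and mmu-miR-615-3p in the tested contrasts, with bars of 1 standard error (SE), computed from the log2 change and its F statistic. Filled points were called at an adjusted p under 0.05 and open points were not. Fitted values of mmu-miR-615-3p against groups at the limit of detection depend on the prior count. For mmu-miR-10a-5p the change from E6.5 to E7.5 was 7.17 in control Epi and -2.01 in Dnmt-null Epi, where both stages were near the limit of detection. The change from control to Dnmt-null in E7.5 Epi was -9.09.

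The second comparison was between genotypes. In E7.5 Epi, Dnmt-null libraries were lower than controls for mmu-miR-10a-5p, mmu-miR-10b-5p and mmu-miR-615-3p, all 3 called, where 33.7% of 652 miRNAs were called and the median log2 change of all was -0.19. The mean of mmu-miR-10a-5p was 622-fold lower, resting on 6 counts in 1 of the 3 Dnmt-null libraries (log2 change -9.09, SE 1.93, edgeR adjusted p = 0.00163), and it was called whichever library was left out. mmu-miR-10b-5p was 14.5-fold lower (log2 change -4.12, SE 1.17, edgeR adjusted p = 0.0116), a call lost without Dnmt-null replicate 2 (adjusted p = 0.0585). For mmu-miR-615-3p the controls were at least 13.6-fold higher (edgeR adjusted p = 0.0193), a call lost without control replicate 1, Dnmt-null replicate 1 or Dnmt-null replicate 2 (adjusted p = 0.0563, 0.0765 and 0.0782).

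The marker lists moved in that contrast as well. In E7.5 Epi, Dnmt-null against control, 4 of 5 epiblast miRNAs were called lower, with summed levels of 105333 to 164935 CPM against 202279 to 212606 CPM, and 6 of 7 trophoblast miRNAs of the Sfmbt2 cluster were called higher, with 5251 to 10676 CPM against 2472 to 3070 CPM. The mesenchymal list had 1 of 4 tested miRNAs lower, miR-143-3p, and summed to 85.7 to 160 CPM against 277 to 413 CPM, with miR-214-3p at 0 in both groups. Of the endothelial pair, 1 of 2 was called lower, miR-126a-3p, and the pair summed to 156 to 232 CPM against 267 to 596 CPM. Of the blood list 0 of 3 were called, of the neural list 0 of 4, and of the endoderm list 1 was higher and 1 lower of 4. The part of these lists in the lower levels of mmu-miR-10a-5p, mmu-miR-10b-5p and mmu-miR-615-3p was not tested.

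In E7.5 Epi Dnmt1-KO against control, 0 of 3 were called by edgeR or by DESeq2, 2 had an unadjusted p under 0.05, and 16.3% of all miRNAs were called. The log2 changes were -2.98 (SE 1.15, edgeR adjusted p = 0.0945) for mmu-miR-10a-5p, -2.39 (SE 0.94, edgeR adjusted p = 0.101) for mmu-miR-10b-5p and -2.32 (SE 1.14, edgeR adjusted p = 0.192) for mmu-miR-615-3p. Without Dnmt1-KO replicate 3, the library with the levels nearest to the controls, all 3 were called (adjusted p = 0.0265, 0.00183 and 0.00541). With no filter on low counts edgeR also called all 3 (adjusted p = 4.73e-29, 1.41e-14 and 0.00367). In Dnmt3a/3b-DKO against control, 0 of 3 were called by either tool, 0 had an unadjusted p under 0.05, and 7.67% of all were called. There mmu-miR-10a-5p had the lowest log2 change, -2.37 (SE 1.12, edgeR adjusted p = 0.235), and edgeR called it with no filter (adjusted p = 1.14e-20). In E7.5 Exe, Dnmt1-KO against Dnmt3a/3b-DKO, 0 of 4 tested members were called by either tool, 1 had an unadjusted p under 0.05, and 1.68% of 597 miRNAs were called. There the log2 changes were -1.25 for mmu-miR-10a-5p, -1.37 for mmu-miR-10b-5p and -1.49 for mmu-miR-615-3p (edgeR adjusted p = 0.484, 0.441 and 0.425), against a median of -0.04 for all. mmu-miR-196b-5p had a log2 change of 2.63 (SE 2.34, edgeR adjusted p = 0.793). Without Dnmt3a/3b-DKO replicate 2, 0 members were called there, the lowest edgeR adjusted p being 0.469 for mmu-miR-615-3p. With no filter edgeR called mmu-miR-10a-5p (adjusted p = 0.0228) and mmu-miR-10b-5p (adjusted p = 5.66e-05) in that Exe contrast.

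At E6.5 only mmu-miR-10b-5p passed the filter in the fits between genotypes. It was called in none of the 6 contrasts by edgeR or DESeq2, and in none was its unadjusted p under 0.05. The share of all miRNAs called was 0% in Exe Dnmt1-KO, 0.532% in Exe Dnmt3a/3b-DKO, 0.532% in Exe Dnmt-null, 0.733% in Epi Dnmt1-KO, 3.42% in Epi Dnmt3a/3b-DKO and 13% in Epi Dnmt-null. In DESeq2 the adjusted p of mmu-miR-10b-5p was not given in 2 of them, Exe Dnmt3a/3b-DKO and Exe Dnmt-null. With no filter edgeR called mmu-miR-10a-5p higher in Exe Dnmt1-KO than in controls (log2 change 6.18, SE 1.41, adjusted p = 0.00371). Each of those controls held 1 count of mmu-miR-10a-5p or fewer. The 4 Exe Dnmt-null libraries held 143, 139, 200.2 and 137 CPM of mmu-miR-10b-5p against 60.8, 50.4, 143 and 63.9 CPM in the controls, so the groups touched at 1 control library.

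The third comparison was between Exe and Epi. At E6.5, 0 of 3 were called by edgeR or DESeq2 in controls, Dnmt3a/3b-DKO and Dnmt-null, where 22.8%, 21.4% and 17.9% of all miRNAs were called, and 0 had an unadjusted p under 0.05. In E6.5 Dnmt1-KO, where 26.9% were called, mmu-miR-10a-5p was higher in Exe (log2 change 5.45, SE 1.26, edgeR adjusted p = 0.00057). It stayed called without Exe replicate 4, the library with 8049 CPM of blood miRNAs (log2 change 5.21, adjusted p = 0.0014), and without Exe replicate 3, its highest library (log2 change 4.73, adjusted p = 0.00385). In Epi of that genotype mmu-miR-10a-5p was at 3.33, 13.0, 0 and 7.97 CPM, so that 3 of the 4 Exe libraries lay above all 4 Epi libraries and the fourth was at 0. mmu-miR-10b-5p was not called by edgeR there (log2 change 1.86, SE 0.87, adjusted p = 0.101). DESeq2 called it (adjusted p = 0.0348), as did edgeR with no filter on low counts (adjusted p = 0.0035). Without Exe replicate 4 its log2 change was 1.43 (edgeR adjusted p = 0.253). In that contrast 3 of 3 blood miRNAs (91.1 to 8049 CPM in Exe, 21.6 to 104 CPM in Epi) and 3 of 4 mesenchymal miRNAs (351 to 4228 CPM and 118 to 143 CPM) were also called higher in Exe, and their part in the difference was not tested.

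At E7.5, 2 of 3 were called in Dnmt1-KO, where 29% of all miRNAs were called. mmu-miR-10b-5p was 4.94-fold higher in Exe (log2 change 2.42, SE 0.80, edgeR adjusted p = 0.0179), a call lost in a fit of those groups alone (adjusted p = 0.122), without libraries under 100000 counts (adjusted p = 0.0537), and without any 1 of Exe replicates 3 and 4 and Epi replicates 1, 2 and 4. mmu-miR-615-3p was 5.54-fold higher in Exe (log2 change 2.59, SE 1.01, edgeR adjusted p = 0.0445), and this call was kept in 2 of 9 alternatives and in 3 of 62 fits with 1 library left out. edgeR called mmu-miR-196b-5p higher in Exe with no filter (log2 change 6.46, adjusted p = 0.0495) and without libraries under 100000 counts (6.56, adjusted p = 0.0425). It did so in some fits with 1 library left out as well, and 1 Exe library held 75.6 CPM, the highest level of mmu-miR-196b-5p. Of the marker lists, 2 of 2 endothelial, 2 of 3 blood and 1 of 4 mesenchymal miRNAs were called higher in Exe of that genotype, the endothelial pair at 1088 to 2774 CPM in Exe and 162 to 431 CPM in Epi, and their part was not tested.

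In E7.5 Dnmt3a/3b-DKO, where 21.7% were called, 0 of 3 were called by edgeR or DESeq2 and 1 had an unadjusted p under 0.05, mmu-miR-10b-5p (log2 change 1.93, SE 0.79, edgeR adjusted p = 0.0728), whose 4 Exe libraries all lay above the 4 Epi libraries. edgeR called mmu-miR-10b-5p there with library totals in place of TMM factors (adjusted p = 0.048), with no filter on low counts (adjusted p = 0.00246), in a fit of those groups alone (adjusted p = 0.0171) and in some fits with 1 library left out, Exe replicate 2 among them (adjusted p = 0.0494), and it called mmu-miR-615-3p in the fit of those groups alone (adjusted p = 0.0499). In that contrast 2 of 2 endothelial and 1 of 3 blood miRNAs were called higher in Exe. In E7.5 controls, given without a test, mmu-miR-10a-5p was 2.39-fold higher in Epi in mean CPM, and mmu-miR-10b-5p and mmu-miR-615-3p were 2.93-fold and 4.02-fold higher in Exe, all 3 with overlapping libraries.

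Whether the Exe to Epi difference changed between the stages was tested as an interaction in both of those genotypes. In Dnmt1-KO 0 of 3 were called by edgeR, 1 had an unadjusted p under 0.05, and 0.76% of all miRNAs were called. mmu-miR-10a-5p had a log2 change of -5.21 (SE 1.55, edgeR adjusted p = 0.0686), from 5.45 at E6.5 to 0.24 at E7.5. DESeq2 called it (adjusted p = 0.00991), and edgeR called it without E6.5 Exe Dnmt1-KO replicate 1 (adjusted p = 0.0419). Without replicate 4 of that group, the library with 8049 CPM of blood miRNAs, edgeR did not call it (log2 change -5.12, adjusted p = 0.133). In Dnmt3a/3b-DKO 0 of 3 were called by either tool, 0 had an unadjusted p under 0.05, and 0.912% of all were called.

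The share of mmu-miR-10a-5p in the sum of mmu-miR-10a-5p and mmu-miR-10b-5p, 2 miRNAs of 23 bases and the same seed, did not overlap between Exe and Epi in E7.5 controls, whereas the levels of both did. In E7.5 Exe it was 14.5% to 33.3% over all 16 libraries with a median of 24.3%. It was 25.8% ± 1.98 (SD, n = 4) in Exe controls, 25.6% ± 3.34 in Dnmt1-KO, 25.0% ± 5.35 in Dnmt3a/3b-DKO and 21.9% ± 8.35 in Dnmt-null. The 4 Exe Dnmt-null libraries, with 17.1%, 33.3%, 22.8% and 14.5%, rested on few counts (7 to 90 counts of mmu-miR-10a-5p) and spread around the other Exe libraries. Epi controls had 66.5%, 74.3% and 74.0%, with no overlap with Exe. In Epi Dnmt3a/3b-DKO the share was 45.0%, 19.0%, 36.1% and 48.8%, below every Epi control, and in Epi Dnmt1-KO it was 3.70%, 58.2% and 82.7% in the 3 libraries with 20 counts or more of the pair. In Epi Dnmt-null it was 0% and 27.3% in the 2 such libraries. The mutant Epi libraries thus spread below, within and above the range of Exe. Ligation and amplification can favour 1 sequence over another, so the share is compared between libraries and is not a share of molecules, and no test was made of it.

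**Figure D4:**
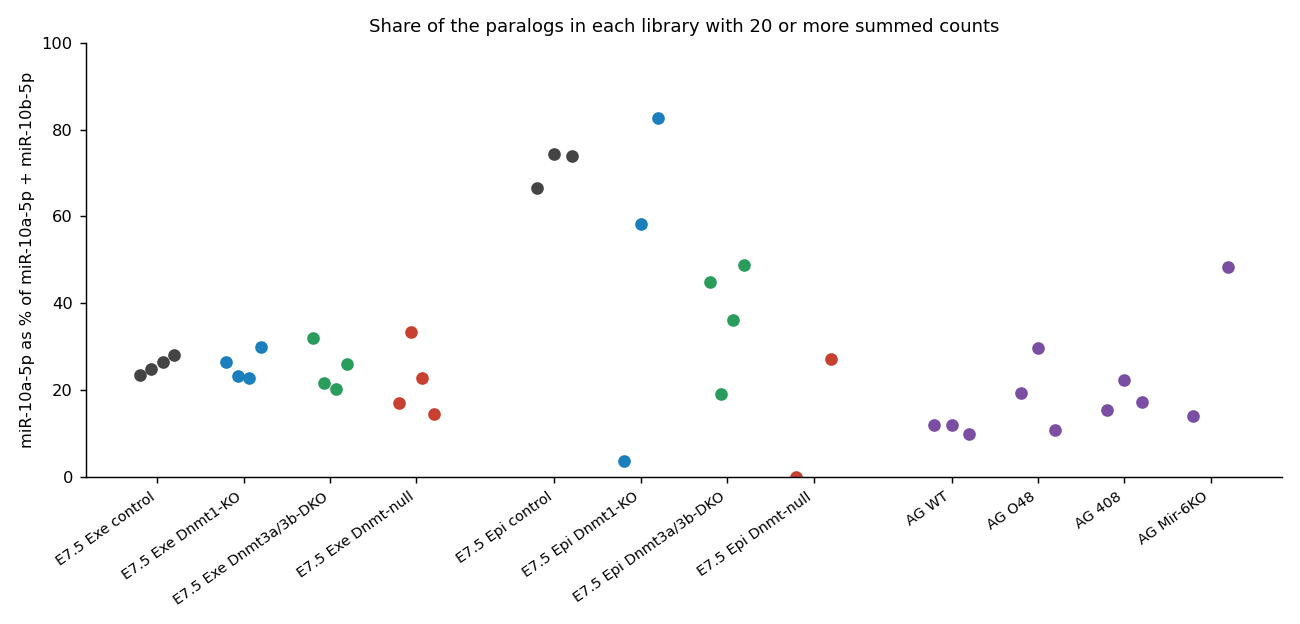
Share of mmu-miR-10a-5p in the summed counts of mmu-miR-10a-5p and mmu-miR-10b-5p, in percent, for each library with 20 counts or more of the pair, by group; each point is 1 library. E7.5 Exe libraries lay between 14.5% and 33.3% and E7.5 Epi controls between 66.5% and 74.3%.

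Other arms of the same genes were low. mmu-miR-10b-3p held 88.4, 7.0, 86.0 and 176 CPM in E7.5 Exe controls and 70.1, 68.6 and 30.2 CPM in E7.5 Epi controls, and in the 7 E7.5 Dnmt-null libraries it was at 0 counts except for 6 counts in 1 Exe library. mmu-miR-615-5p reached at most 23.6 CPM among E7.5 controls and was at 0 counts in all 7 Dnmt-null libraries of E7.5. The ratio of mmu-miR-615-3p to mmu-miR-10b-5p, from different Hox clusters, was 0.0549 to 0.353 in the 21 E7.5 libraries with more than 3 counts of both, with a median of 0.137. It was lowest in Exe control replicate 2, the library in which all 3 miRNAs were lowest among controls.

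Patterns over the 16 groups of natural embryos were compared by Pearson's r of group means of log2 CPM, as a description over 505 miRNAs, which share libraries and depth. mmu-miR-10b-5p and mmu-miR-615-3p were alike at r = 0.96, mmu-miR-10a-5p and mmu-miR-10b-5p at 0.90, and mmu-miR-10a-5p and mmu-miR-615-3p at 0.90. Outside the 6 miRNAs, the most similar pattern for all 3 was that of mmu-miR-10b-3p (r = 0.92, 0.92 and 0.97 for mmu-miR-10a-5p, mmu-miR-10b-5p and mmu-miR-615-3p). Next came mmu-miR-145a-3p (0.88) and mmu-miR-145a-5p (0.86) for mmu-miR-10a-5p, mmu-miR-145a-5p (0.85) and mmu-miR-143-3p (0.85) for mmu-miR-10b-5p, and mmu-miR-133a-3p (0.85) and mmu-miR-145a-5p (0.85) for mmu-miR-615-3p. The miRNAs miR-143 and miR-145a are markers of smooth muscle and mesenchyme, and miR-133a is a muscle miRNA. For mmu-miR-10a-3p the highest were mmu-miR-145a-3p (0.78), mmu-miR-674-3p (0.75) and mmu-miR-10b-3p (0.73). The highest r for mmu-miR-196a-5p was 0.58, with mmu-miR-200b-5p, followed by mmu-miR-191-5p (0.54) and mmu-miR-142a-5p (0.53), and for mmu-miR-196b-5p 0.62, with mmu-miR-1247-5p, mmu-miR-200b-5p and mmu-miR-378a-5p. The miR-196 pair was at 3 counts or fewer in most of these libraries.

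In SC embryos, mmu-miR-10b-5p was the only member above 3 counts in every library, with at least 36 counts at E6.5 and 271 at E7.5. mmu-miR-10a-5p exceeded 3 counts in 10 of 12 libraries at E6.5 and in 3 of 6 at E7.5. In 1 E7.5 Control library mmu-miR-615-3p, mmu-miR-10a-3p and mmu-miR-196a-5p reached 278, 175 and 102 counts, and among the other E7.5 SC libraries the 3 were at 0 counts except for 15 counts of mmu-miR-615-3p in a Mir-6KO;Dnmt-null library. At E6.5 mmu-miR-10b-5p was at 251, 189.5 and 697 CPM in WT, 299, 218 and 151 CPM in Dnmt-null, 129.7, 106 and 137 CPM in DKO and 185, 305 and 150.0 CPM in DKO;Dnmt-null embryos. mmu-miR-10a-5p ran from 1.91 to 47.0 CPM over those 12 libraries, and mmu-miR-615-3p reached at most 19.4 CPM. DKO;Dnmt-null embryos were higher than DKO embryos in mmu-miR-10b-5p by a log2 change of 0.60 (SE 0.21, edgeR adjusted p = 0.0315), in a contrast in which 35.3% of 603 miRNAs were called. Their libraries did not overlap, but the call was lost without DKO replicate 1, DKO replicate 2 or DKO;Dnmt-null replicate 2 (adjusted p = 0.0844, 0.194 and 0.131). It was also lost with the replicate number as a block (edgeR adjusted p = 0.0596). In that contrast 3 of 3 blood, 4 of 4 endoderm, 2 of 7 trophoblast and 1 of 3 neural miRNAs were called higher. Called lower were 5 of 5 epiblast and 1 of 2 endothelial miRNAs, and 0 of 3 mesenchymal miRNAs were called. The epiblast list was at 130119 to 147052 CPM in DKO;Dnmt-null and 177971 to 196784 CPM in DKO embryos. The part of these lists was not tested. These 2 groups came from separately made count tables, which cannot be told apart from the genotype. The second member tested there, mmu-miR-10a-5p, had a log2 change of 0.63 (SE 0.48, edgeR adjusted p = 0.344).

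Against WT SC embryos, mmu-miR-10b-5p was not called in Dnmt-null embryos by edgeR or DESeq2 (log2 change -1.21, SE 0.59, edgeR adjusted p = 0.289), with 0 members at an unadjusted p under 0.05 and 1.52% of 461 miRNAs called. In DKO embryos it was not called by edgeR (log2 change -1.92, SE 0.59, edgeR adjusted p = 0.18) and was called by DESeq2 (adjusted p = 0.029), with an unadjusted p under 0.05 in edgeR and 0.217% of miRNAs called. All 3 DKO libraries lay below all 3 WT libraries. At E7.5, SC Control embryos held 257, 253 and 71.2 CPM of mmu-miR-10b-5p and Mir-6KO;Dnmt-null embryos 29.2, 85.4 and 114 CPM. None of 2 members tested was called by edgeR or DESeq2, 0 had an unadjusted p under 0.05, and 3.08% of 585 miRNAs were called. mmu-miR-10a-5p held 24.2, 85.1 and 0.0752 CPM in those controls and 0, 0.0595 and 38.5 CPM in Mir-6KO;Dnmt-null embryos, so that libraries of 1 group differed by more than the groups did.

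In AG-haESCs mmu-miR-196a-5p and mmu-miR-615-3p were abundant. WT cells held 900.4, 883 and 944 CPM of mmu-miR-10b-5p, 898, 909 and 856 CPM of mmu-miR-615-3p and 368, 443 and 411 CPM of mmu-miR-196a-5p. The last was 407 ± 37.8 CPM in WT (SD, n = 3), 353 ± 15.6 CPM in O48 and 321 ± 15.8 CPM in 408, whereas no library of natural embryos exceeded 21.7 CPM. The arm mmu-miR-196a-1-3p, which comes from the Hoxb cluster copy, was at 237 ± 22.5 CPM in WT cells, and mmu-miR-196a-2-3p, from the Hoxc cluster copy, was at 0 counts in all 88 libraries of the main table. mmu-miR-196b-5p did not exceed 7.38 CPM in any AG-haESC library. mmu-miR-615-3p equalled 0.907 to 1.03 times mmu-miR-10b-5p in WT cells, above the highest ratio of E7.5 embryos, 0.353.

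Line O48 was lower than WT cells in mmu-miR-10b-5p, with 151.5, 117 and 175 CPM (log2 change -2.59, SE 0.19, edgeR adjusted p = 4.33e-05). It was 1 of 5 members called, where 13.7% of 773 miRNAs were called and the median log2 change of all was -0.28. mmu-miR-615-3p was at 277, 349.8 and 220.3 CPM in O48, and mmu-miR-10a-5p at 36.4, 49.6 and 21.2 CPM against 124, 119 and 105 CPM in WT. Neither overlapped with WT cells, and neither was called in the fit that takes its spread also from the Mir-6KO libraries (edgeR adjusted p = 0.401 and 0.138). Without those 2 libraries, both were called, mmu-miR-615-3p at a log2 change of -1.35 (SE 0.17, edgeR adjusted p = 0.000908) and mmu-miR-10a-5p at -1.39 (SE 0.31, edgeR adjusted p = 0.0141), where 26.1% of 648 miRNAs were called; mmu-miR-10b-5p was then at -2.31 (SE 0.18, edgeR adjusted p = 5.46e-05). mmu-miR-196a-5p was called in neither fit (log2 change -0.18, SE 0.17 and 0.10, SE 0.13). O48 and WT are 1 line each, so a difference between genotypes cannot be told apart from one between lines.

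The 2 libraries labelled Mir-6KO had 0 counts of mmu-miR-196a-5p and of mmu-miR-196a-1-3p, although their parental line held 342 to 371 CPM of the first. They held 14.1 and 0 CPM of mmu-miR-615-3p, 100.2 and 79.8 CPM of mmu-miR-10b-5p and 16.2 and 74.8 CPM of mmu-miR-10a-5p. The E7.5 SC Control libraries, to which their profiles were most similar, held at most 3.78 CPM of mmu-miR-196a-5p and 10.3 CPM of mmu-miR-615-3p. Neither gene was among the deletions.

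**Figure D5:**
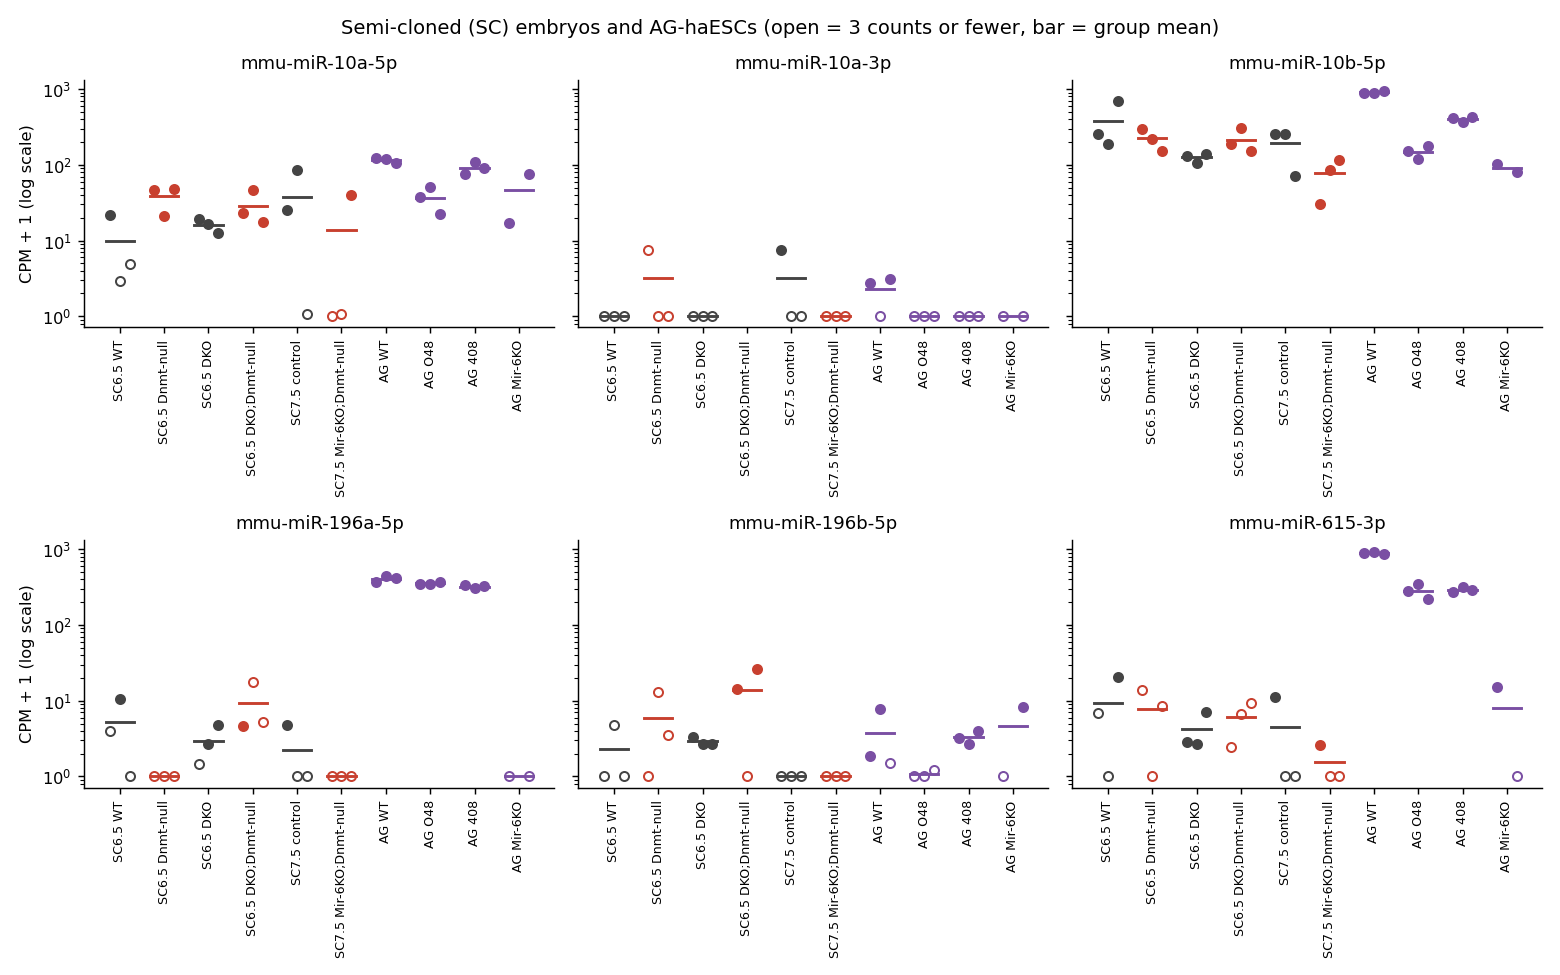
Levels of the Hox-cluster miRNAs in SC embryos and AG-haESCs, as CPM + 1 on a log axis; each point is 1 library, open points held 3 counts or fewer, and the horizontal bars are group means. mmu-miR-196a-5p was at 304 to 443 CPM in WT, O48 and 408 cells, and at 0 in both libraries labelled Mir-6KO.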

How the data were processed

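Read counts per mature miRNA were deposited by the authors for 91 libraries, 88 in a main table of 1504 mature miRNAs and 3 (DKO;Dnmt-null SC embryos) in a table of 895. Per the submitters' processing notes and the study's methods, the authors made these counts on miRBase mature miRNAs after adapter removal (fastp 0.20.1) and alignment to GRCm38 (Bowtie 1.2.1.1), with DESeq2 1.30.1 for their own comparisons. Libraries were made from 100 pg of RNA with amplification. Molecular identifiers and the mismatch setting are not given in the sources used here. An earlier copy of the main table was not used.

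From the deposited counts, CPM were computed here over each library's total, and shares of paralogs as percent. Log2 changes came from edgeR 4.0.16 (R 4.3.3; TMM factors, filterByExpr with a count minimum of 10), with a quasi-likelihood test in 29 contrasts and Benjamini-Hochberg adjustment over all miRNAs tested. Each edgeR SE was the size of the log2 change over the square root of its F statistic, not a standard error given by the fit. Contrasts between stages and tissues came from 1 fit of 62 libraries with 16 groups, those between genotypes from 1 fit for each tissue and stage, and those of SC embryos and AG-haESCs from fits of their own. Ratios are of mean CPM; against a group with 3 counts or fewer in every library they are lower bounds set at 3 counts. For patterns, log2 CPM used a prior count of 2. Tables were handled with Python 3.11.15. The fit was tested on simulated data. Libraries of a group were compared pairwise: in 118 pairs the lowest chi-square per degree of freedom was 4.20, so none was a copy.

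Alternatives were DESeq2 1.42.0, RLE factors, library totals, 2 other filters, the study's thresholds (log2 change of 0.5, unadjusted p of 0.05), the replicate number as a block, fits of the compared groups alone and leaving out each library. Added after seeing the data were leaving out 5 libraries under 100000 counts and leaving out the libraries labelled Mir-6KO AG-haESC. The genes named are the 6 miRNAs, the other arms of their genes, the 3 most similar patterns for each, and marker miRNAs of 7 lists (epiblast, trophoblast, mesenchyme and smooth muscle, blood, endothelium, endoderm, neural) beside the results they touch. The 6 miRNAs and the lists were chosen with earlier results of these data known.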

Additional observations from a re-analysis of the deposited data

Results flagged for a closer look

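Among 32 combinations of a miRNA and a group of 4 libraries, 2 held a library far from the other 3, by Dixon's ratio of the gap to the whole range (above the 95% critical value for 4 libraries, which chance passes in about 1 group in 20). For mmu-miR-615-3p, replicate 2 of the E7.5 Exe controls was far below the others, at 22.2 CPM against 560.5 to 854 CPM, with a ratio of 0.883. The same library was lowest in the mesenchymal, blood and endothelial lists, and the part of those cells was not tested. For mmu-miR-10b-5p, replicate 3 of E6.5 Exe Dnmt-null was far above the others, at 200.2 CPM against 137 to 143 CPM, with a ratio of 0.888. That library had fewer than 100000 counts in total.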

How the results depend on the processing

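The 12 calls between stages stayed within 1.5 times that number under every alternative run, with 11 to 14 calls when 1 library was left out. Between Exe and Epi, 3 calls became 5 with no filter and 5 with the study's thresholds, and 2 to 4 when 1 library was left out. Between genotypes, 3 calls became 10 with no filter, 6 with the study's thresholds and 7 with the replicate block, and 1 to 6 when 1 library was left out (6 without E7.5 Epi Dnmt1-KO replicate 3, 1 without E7.5 Epi Dnmt-null replicate 2). In SC embryos and AG-haESCs, 2 calls became 4 with the study's thresholds, 1 with the replicate block and 4 without the Mir-6KO libraries, and 1 to 4 when 1 library was left out (1 without SC DKO replicate 2, 4 without either Mir-6KO library). The change of the Exe to Epi difference, with 0 calls, gave 1 call, of mmu-miR-10a-5p in Dnmt1-KO, with DESeq2, with no filter, with a mean of at least 10 counts, with the study's thresholds and without libraries under 100000 counts, and 0 to 1 when 1 library was left out. The causes were not tested.

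Replicate numbers did not pair the libraries between genotypes. The correlation of same-numbered libraries' deviations had a median of 0.00831 there, from -0.174 to 0.329. A library was most similar to its own number in 50 of 182 such comparisons. Between Exe and Epi of 1 genotype and stage, the median was 0.0566, from -0.0751 to 0.271, and 10 of 30 correlations exceeded 0.1. Libraries of other numbers had a median of -0.0191 there. Between stages the medians were 0.0297 and -0.011. The main tests treated Exe and Epi libraries as unpaired. The replicate block added 4 calls in E7.5 Epi, all 3 miRNAs in Dnmt1-KO against control (adjusted p = 0.0132, 0.0411 and 0.0492 for mmu-miR-10a-5p, mmu-miR-10b-5p and mmu-miR-615-3p) and mmu-miR-10a-5p in Dnmt3a/3b-DKO (0.043), in edgeR. It also added mmu-miR-10b-5p between Exe and Epi of E7.5 Dnmt3a/3b-DKO (0.0266), and took away mmu-miR-10b-5p in SC DKO;Dnmt-null against DKO embryos (0.0596). It gave 0 calls of the change of the Exe to Epi difference, 4 between Exe and Epi and 12 between stages. Depth limits mmu-miR-10a-3p and both miR-196 miRNAs, which were at or under 3 counts in most embryo libraries.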
